A study of Drosophila melanogaster with 6 samples.

Results

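The Sox family of Drosophila melanogaster was followed through the chromatin of sorted midgut progenitor cells. Its 8 genes are Sox21a, Sox21b, D (Dichaete), Sox100B, SoxN, Sox14, Sox15 and Sox102F. Peaks were taken from each library's list where they touched a gene body or the 10 kb on either side of it, in dm6 coordinates. Sox21a, Sox21b and D are neighbours on chromosome 3L and were also treated as 1 domain, from 10 kb before the first gene to 10 kb after the last. This gave 138 of the 49268 peaks in the 6 lists. Merging peaks that overlapped by 1 bp or more gave 30 regions of 11854 in all. Of these 30 regions, 29 lay in a gene window, and 1 lay in the domain at 11044 bp from D, past the 10 kb limit. The farthest region inside a window lay 9487 bp from its gene (Sox14), and the nearest one left out lay 10834 bp from the same gene.

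Sox proteins carry an HMG box, a DNA-binding domain that enters the minor groove and bends the helix. They switch developmental programmes on or off together with partner factors, and several are known to act where nucleosomes are present. In the adult fly midgut Sox21a is the family member known from the progenitors, where it is needed for the differentiation of enteroblasts and for stem cell division. Sox100B has also been tied to the adult gut, while the other members are best known from the embryo, the nervous system, the gonad or metamorphosis.

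The H1 RNAi flies (3 samples, A, B and C) carried the transgene UAS H1 RNAi 1 in addition to esgts, UAS-GFP, and the control flies (3 samples, A, B and C) carried esgts, UAS-GFP without it. In both groups GFP marked the cells in which escargot is active, the intestinal stem cells and enteroblasts, through a driver that works at the higher temperature. H1 is the linker histone, which binds DNA where it enters and leaves the nucleosome. All flies were females, 3 days old at the start, fed poor food, and were held at 18 °C for 2 days before 4 days of induction at 29 °C. Each sample pooled 70 guts, from which 50000 to 100000 GFP-positive cells were sorted for ATAC-seq, an assay in which Tn5 transposase cuts and tags open DNA. The RNAi line is 1 transgene, and its effect on H1 was not analysed here. Peaks come from a mixed pool, so fewer cells with an open site and less opening per cell cannot be told apart.

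The H1 RNAi lists held 6564, 9827 and 7261 peaks and the control lists 6142, 10872 and 8602 (samples A, B and C). Read totals were not used here. The peak caller's genome-wide background, which rises with depth, was 4.83 to 8.28 fragments per base in the H1 RNAi libraries and 5.04 to 20.66 in the controls. Median peak width was 323 to 416.5 bp in H1 RNAi and 364 to 572 bp in control libraries. Control A had the shortest list and covered 2.75 Mb, against 6.92 and 5.96 Mb in controls B and C and 3.04 to 3.91 Mb in the H1 RNAi lists. Of 6 progenitor markers, 5, 6 and 4 had a peak within 500 bp of a gene end in H1 RNAi A, B and C, against 6 in each control. The markers were esg, Delta, N, Su(H), klu and Sox21a, so 1 of them is itself a Sox gene. Sox21a had such a peak in all 6 libraries. Delta had none in H1 RNAi A and C, and Su(H) none in H1 RNAi C. Of 4 enteroendocrine markers 0 to 2 had one in either group, with Tk and AstA at 0 in all 6 libraries. Of 5 enterocyte markers 3 had one in each H1 RNAi library and 2 to 3 in the controls, and of 4 visceral muscle markers 2 and 2 to 3. The part of these differences in the results below was not tested.

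At the Sox21a, Sox21b and D domain more peaks were called in every H1 RNAi sample than in any control. The domain (3L, 14093481 to 14188620) held 7, 8 and 8 peaks in H1 RNAi A, B and C, against 5, 6 and 6 in control A, B and C. The groups did not overlap, with a mean of 7.67 ± 0.577 in H1 RNAi and 5.67 ± 0.577 in controls (SD, n = 3 each; exact two-sided permutation p = 0.1). An exact permutation test of 3 samples against 3 cannot go below 0.1, so no comparison made with it here can pass 0.05, and each p measures the spread between these gut pools. The length covered by peaks did not follow the number. It was 2994, 3373 and 3067 bp in H1 RNAi and 2422, 4117 and 4198 bp in controls (exact permutation p = 0.4), and control A lay below and controls B and C above every H1 RNAi sample. The surplus of peaks was absent among peaks with a −log10 q of at least 10, where the mean difference was 0. That minimum kept 3618, 5994 and 3985 peaks of H1 RNAi lists A, B and C. It kept 2700, 7538 and 6110 peaks of control lists A, B and C, and the part of this was not tested. With lists of equal length the mean difference was 1.67 peaks (exact permutation p = 0.1). With a minimum fold of 4 the mean difference was 1.33 peaks and the groups overlapped (exact permutation p = 0.6).

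**Figure D1:**
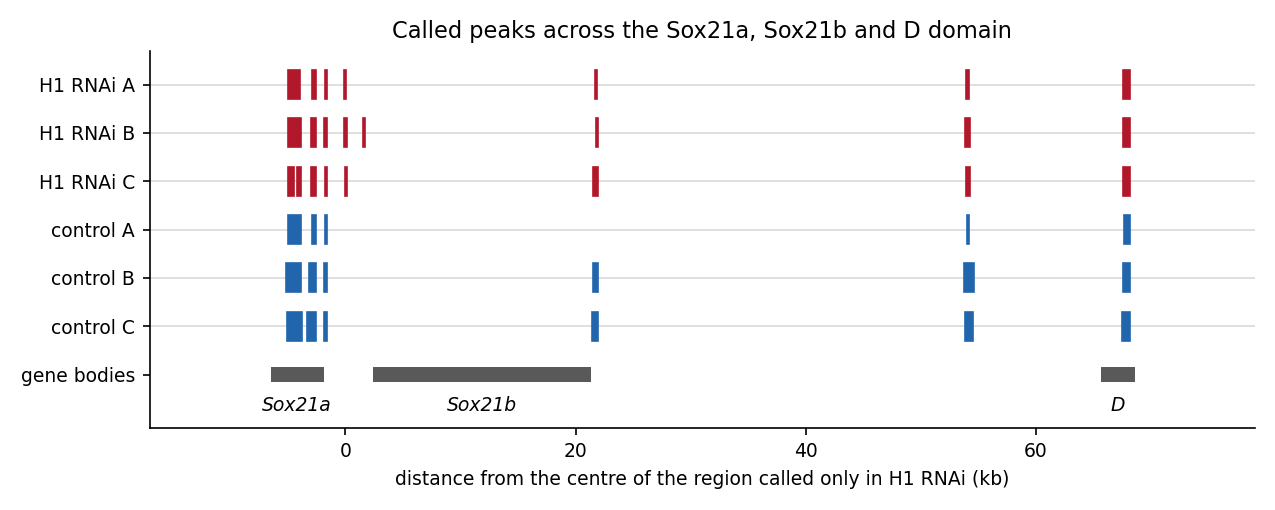
Peaks called in each library (boxes, drawn to scale) across the Sox21a, Sox21b and D domain; the x axis gives the distance in kb from the centre of the region called only in H1 RNAi, and grey bars are gene bodies. The 3 H1 RNAi rows hold 7, 8 and 8 peaks and the 3 control rows 5, 6 and 6, and the body of Sox21b holds none in any row.

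The peaks of the domain sat at Sox21a, at 1 end of Sox21b, and at D, and most of the DNA between them held no peak. Of 8 regions, 5 were called in all 6 samples. Over the whole series 4366 of 11854 regions (36.8%) were called in all 6. The body of Sox21b (14112405 to 14131324), a gene of the same subgroup that is expressed in embryonic ectoderm, held no peak in any library. From the last region before it to the region past its higher-coordinate end, 19.796 kb passed without a call. A further 31.799 kb without a call separated that region from the next one towards D. Both stretches were empty in all 6 lists.

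Sox21a (3L, 14103481 to 14108118) held 3 regions called in every sample. The widest lay inside the gene (14104858 to 14106226), the second also inside it and 702 bp from its higher-coordinate end (14106683 to 14107416), and the third at that end (14108115 to 14108422). The gene table gives no strand, so the ends are named by coordinate. The third peak lay just past the annotated gene, except in control C, where it touched it. Summits of the gene-end peak fell within 40 bp of each other over the 6 libraries. Summits of the inner regions ranged over 121 and 75 bp. Over all 4366 regions called in 6 samples the median summit range was 134 bp.

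The Sox21a window held 4, 5 and 5 peaks in H1 RNAi A, B and C, against 3, 3 and 3 in control A, B and C. Every H1 RNAi sample stood above every control, by 1.67 peaks on average (exact permutation p = 0.1). With Benjamini-Hochberg adjustment over 13922 protein-coding genes that p was 1. Of these genes, 0.467% had H1 RNAi counts all above the control counts and 0.977% separated in either direction. With a minimum fold of 4 the Sox21a counts overlapped between the groups, with a mean difference of 1.33 peaks (exact permutation p = 0.3). Covered length in the window did not separate the groups, at 1896, 2216 and 1783 bp in H1 RNAi and 1696, 2195 and 2273 bp in controls (exact permutation p = 0.9). The extra peaks had 3 sources. One was a region 1747 bp beyond the gene end, called in all 3 H1 RNAi samples. The others were a split of the widest region into 2 peaks in H1 RNAi C and a peak of 105 bp in H1 RNAi B, whose shortest peak measured 101 bp.

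The region beyond the gene end (14109865 to 14110115) had a peak in each H1 RNAi list and in 0 control lists. It lay 2290 bp from Sox21b, so neither gene can be assigned to it by distance. Its 3 summits, at 14109954, 14109955 and 14109950, fell within 5 bp. The peaks were small, of 217, 249 and 190 bp, and stood at the 37.5th, 38.8th and 32.1st percentile of their own lists by −log10 q. Their −log10 q was 8.52, 9.93 and 7.38, so none is left at a minimum of 10. The nearest control peak was the one at the gene end, 1442 bp away from region to region. Of all 11854 regions, 0.186% had this pattern, and 1 of the 30 Sox regions did. It was also called in 3 H1 RNAi samples and 0 controls with lists of equal length, but in 0 samples of either group with a minimum fold of 4.

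**Figure D2:**
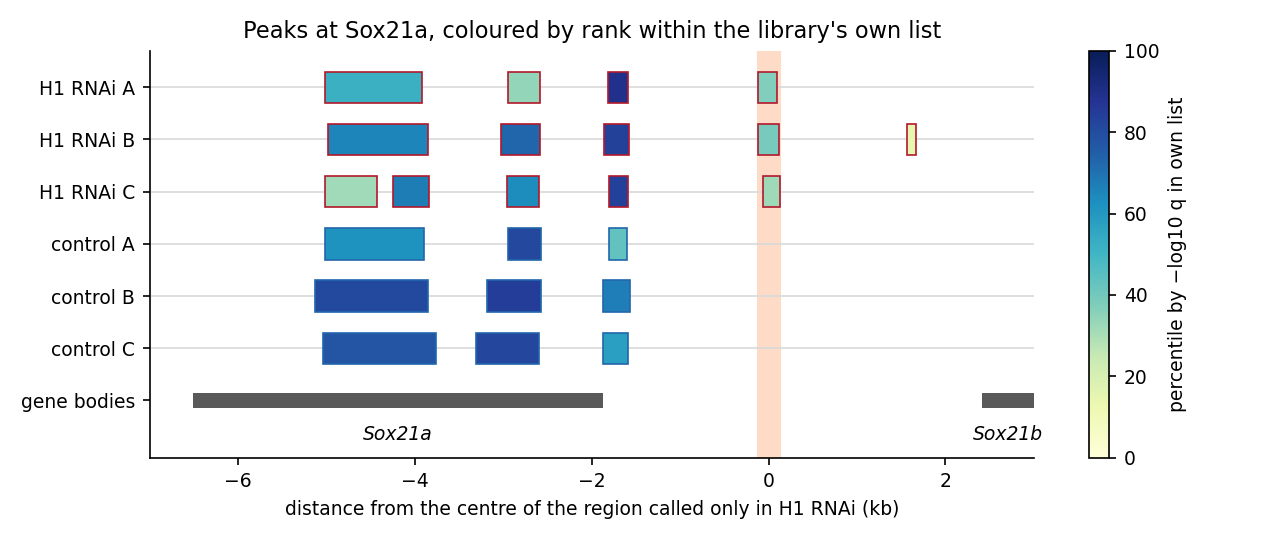
Peaks at Sox21a and the near end of Sox21b in each library, as boxes drawn to scale and coloured by percentile within the library's own list; the x axis gives the distance in kb from the centre of the region called only in H1 RNAi (shaded). The shaded region holds a peak in 3 H1 RNAi rows and in 0 control rows, and the gene-end peak to its left is the darkest of the shared peaks in the H1 RNAi rows and the palest in the control rows.

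The order of the 3 shared Sox21a peaks within a list was not the same in the groups. Heights cannot be compared between libraries of different depth, but the order of peaks inside 1 list needs no scaling. In H1 RNAi A, B and C the gene-end peak stood at the 89.3rd, 83.5th and 83.5th percentile of its list, the inner peak nearest to it at the 34.3rd, 73.2nd and 63.4th, and the widest at the 52.2nd, 65.5th and 67.3rd. In control A, B and C the gene-end peak stood at the 43.6th, 66.9th and 57.6th percentile, the inner peak nearest to it at the 81.3rd, 84.4th and 82.0th, and the widest at the 62.0th, 81.2nd and 77.5th. The gene-end peak was thus the first of the 3 in every H1 RNAi list and the last of the 3 in every control list.

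The same order held by the authors' fold. The gene-end peak had a fold of 5.93, 5.59 and 4.94 in H1 RNAi A, B and C, above both inner peaks of the same list. In control A, B and C it had a fold of 3.23, 2.75 and 2.91, below both inner peaks of the same list. With a minimum fold of 4 the gene-end region was therefore called in 3 H1 RNAi samples and 0 controls. That minimum kept 3602, 6143 and 2918 peaks of H1 RNAi lists A, B and C. It kept 2853, 3007 and 4157 peaks of control lists A, B and C. The lists thus kept unlike shares of their peaks, and the part of this in the call was not tested. The share of all regions so called at this fold is not given here.

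Such a turn of order was uncommon but present elsewhere. Of 1270 pairs of regions called in all 6 samples and 5 kb or less apart, 44 (3.46%) were ordered one way in 3 H1 RNAi lists and the other way in 3 control lists by −log10 q. By fold, 42 of 1270 (3.31%) were. Among the 5 such pairs in the Sox windows 2 turned, both at Sox21a, and both contain the gene-end peak, so they are not independent. This comparison was added after the values were seen and has no test. The gene-end region was the narrowest of the 3, and in 27 of the 44 turned pairs by −log10 q (61.4%) the narrower region was the one ahead in H1 RNAi. By fold this was so in 30 of the 42 turned pairs (71.4%). Peak width and background differed between the libraries as given above, and their part in the order was not tested.

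**Figure D3:**
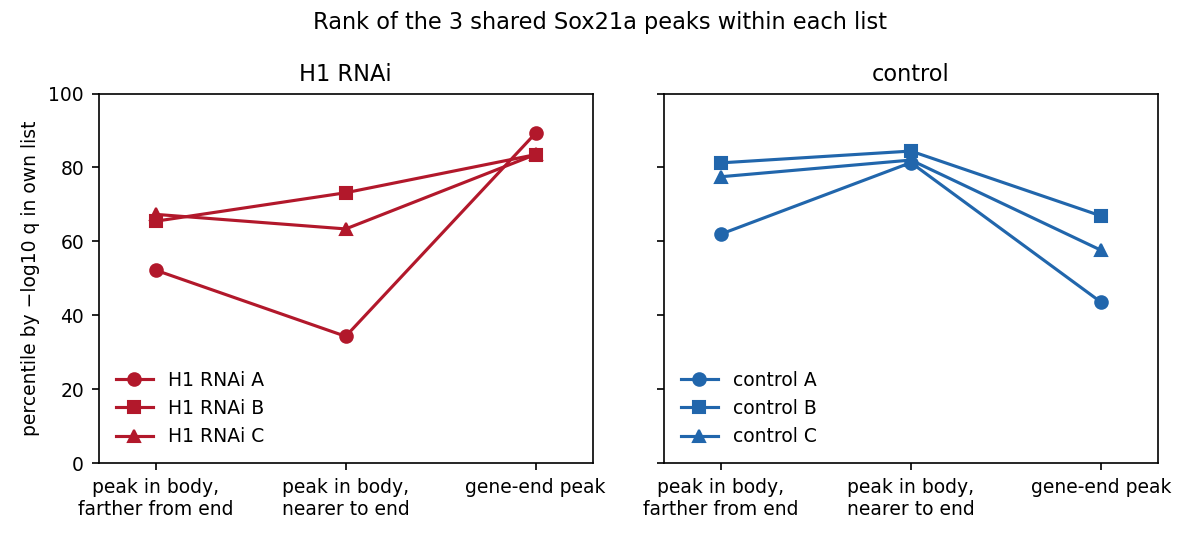
Percentile by −log10 q within each library's own list (y axis, 0 to 100) for the 3 Sox21a peaks called in every sample (x axis), H1 RNAi libraries on the left and control libraries on the right, each line 1 library. Lines end highest at the gene-end peak in all 3 H1 RNAi libraries and lowest there in all 3 controls.

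Sox21b shared its near flank with Sox21a, so its window held the same 5 regions and 1 of its own. The window held 5, 6 and 6 peaks in H1 RNAi, against 3, 4 and 4 in controls (exact permutation p = 0.1, adjusted p = 1 over all genes), and the groups did not overlap. With a window of 5 kb they did overlap (exact permutation p = 0.3). With a minimum fold of 4 they did not, with a mean difference of 1.67 peaks (exact permutation p = 0.1). Of all genes, 1.62% separated at that fold in either direction. Its own region lay 130 bp past the higher-coordinate end (14131454 to 14131945). Peaks were called there in every H1 RNAi sample and in controls B and C, with 5 summits within 19 bp. Control A, the shortest list, had no peak there.

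D, or Dichaete, a regulator of segmentation and of the embryonic nervous system, held 1 of the strongest peaks of the series in its body. The region (14177490 to 14178181) lay 439 bp inside the higher-coordinate end of the gene (14175610 to 14178620). It ranked 79th, 99th and 78th in H1 RNAi lists A, B and C, and 68th, 138th and 49th in control lists A, B and C. It was thus at the 98.7th percentile or above in all 6. Covered length was 569, 572 and 576 bp in H1 RNAi and 536, 635 and 692 bp in controls, so the H1 RNAi values lay inside the range of the controls (exact permutation p = 0.4). Summits lay between 14177677 and 14177728 in 5 libraries and at 14177985 in control A. The region 11044 bp away on the side of Sox21b (14163745 to 14164566) was also called in all 6 samples. Its percentiles were spread, at 15.3, 50.7 and 18.4 in H1 RNAi and 20.4, 62.7 and 55.1 in controls.

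SoxN, a group B gene of the embryonic neuroectoderm, had 1 peak at a gene end in every sample. The gene lies on chromosome 2L (8825645 to 8829670), and the region spans its lower-coordinate end (8825110 to 8825760). It stood at the 89.3rd, 93.2nd and 96.3rd percentile in H1 RNAi A, B and C and at the 91.5th, 93.0th and 97.7th in control A, B and C. Its summits fell within 57 bp, and covered bases were 471, 457 and 474 in H1 RNAi and 415, 616 and 604 in controls. The only other peak within 10 kb was called in control B alone (8835171 to 8835386).

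Sox100B, the group E gene and relative of vertebrate SOX9, held a strong peak inside the gene and a weaker one at its end, both in all 6 samples. The gene lies on chromosome 3R (31065253 to 31083407). The inner region (31066641 to 31068376) lay 1388 bp from the lower-coordinate end and stood at the 98.4th, 97.9th and 98.8th percentile in H1 RNAi and at the 98.9th, 99.4th and 99.0th in controls. It was called as 1, 2 and 2 peaks in H1 RNAi A, B and C and as 1 peak in each control. The higher-coordinate end of the gene (31082345 to 31083634) was called in controls B and C and in 0 H1 RNAi samples, at or below the 16.0th percentile of both lists. The window held 4, 7 and 4 peaks in H1 RNAi and 4, 7 and 6 in controls, with 2637, 2673 and 1838 bp covered against 2629, 6124 and 4206 bp (exact permutation p = 0.3). Control A, with fewer bases than H1 RNAi A and B, overlapped the H1 RNAi group.

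At the lower-coordinate end of Sox100B (31064971 to 31065300) the strongest point of the peak differed in place. Summits lay at 31065077, 31065095 and 31065083 in H1 RNAi A, B and C, against 31065202, 31065205 and 31065130 in control A, B and C. Every H1 RNAi summit lay on the lower-coordinate side of every control summit, by 94 bp on average (difference −94 bp; exact permutation p = 0.1, adjusted p = 0.753 over 4366 regions). It was the 1 of 14 shared Sox regions whose summits did not overlap between the groups, where 13.3% of all shared regions had such summits, so the count does not set the family apart. Without H1 RNAi A or without H1 RNAi B the count was 4, and without control B or without control C it was 3. Groups separate more easily with fewer samples, and the share of all shared regions is not given here for these omissions. The 13.3% is therefore no background for them.

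Sox14, a group C gene induced by ecdysone and needed for the pruning of neurites at metamorphosis, held the broadest region of the family. The gene lies on chromosome 2R (23978801 to 23985177), and the region of 3525 bp ran from its lower-coordinate end into the body (23978111 to 23981635). It was called as 4, 4 and 3 peaks in H1 RNAi A, B and C, against 3, 1 and 1 peaks in control A, B and C. Bases under these peaks were 2298, 2340 and 2184 in H1 RNAi and 2582, 3525 and 3442 in controls, with every H1 RNAi sample below every control. Of the 14 shared Sox regions 2 had such values, here and at the end of CG8468 near Sox15, against a background of 14.5% of shared regions. More bases in every H1 RNAi sample were found at 0 of 14, with 0.137% of all shared regions, and more peaks also at 0 of 14, with 0.916%. Over the whole window Sox14 had 6, 7 and 5 peaks in H1 RNAi and 5, 4 and 4 in controls, which touched at 5 (exact permutation p = 0.2).

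Sox15, the group F gene, known from the socket cells of sensory bristles, had no peak in its body in any of the 6 samples. The gene lies on chromosome 2R (14201390 to 14212413). A region 105 bp past its higher-coordinate end (14212518 to 14213062) was called in controls B and C and in 0 H1 RNAi samples, at the 35.5th and 20.5th percentile. Covered length in the window was 1024, 633 and 781 bp in H1 RNAi, against 1304, 1922 and 1645 bp in controls. It was the 1 member of 8 whose covered length separated the groups (mean difference −811 bp, exact permutation p = 0.1, adjusted p = 0.71 over all genes). The background was 4.22% of genes with H1 RNAi covered length all below the controls. All above were 0 of 8 members and 0.0575% of genes, which makes 4.28% of genes in either direction. Without control A this count was 7 of 8 members, but then 70.6% of all genes separated in either direction. Without H1 RNAi B or without H1 RNAi C it was 2 of 8, where 13.7% and 5.13% of all genes separated in either direction. Most bases in this window lay at neighbouring genes and not at Sox15.

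Sox102F, the group D gene on chromosome 4 (800436 to 834393), is the longest of the family. It had 1 inner region called in every sample (807004 to 808425), with strongest summits within 47 bp over the 6 libraries. Its percentiles were 50.8, 40.4 and 74.8 in H1 RNAi and 46.2, 60.7 and 66.4 in controls. The higher-coordinate end (833840 to 834591) was called in 1 H1 RNAi sample (C) and in 3 of 3 controls. These were weak peaks, between the 5.86th and the 31.1st percentile of their lists. The other 4 regions of this gene were each called in a single sample, at a percentile of 9.92 or less. The window held 1, 2 and 4 peaks in H1 RNAi and 2, 4 and 3 in controls (exact permutation p = 0.8).

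**Figure D4:**
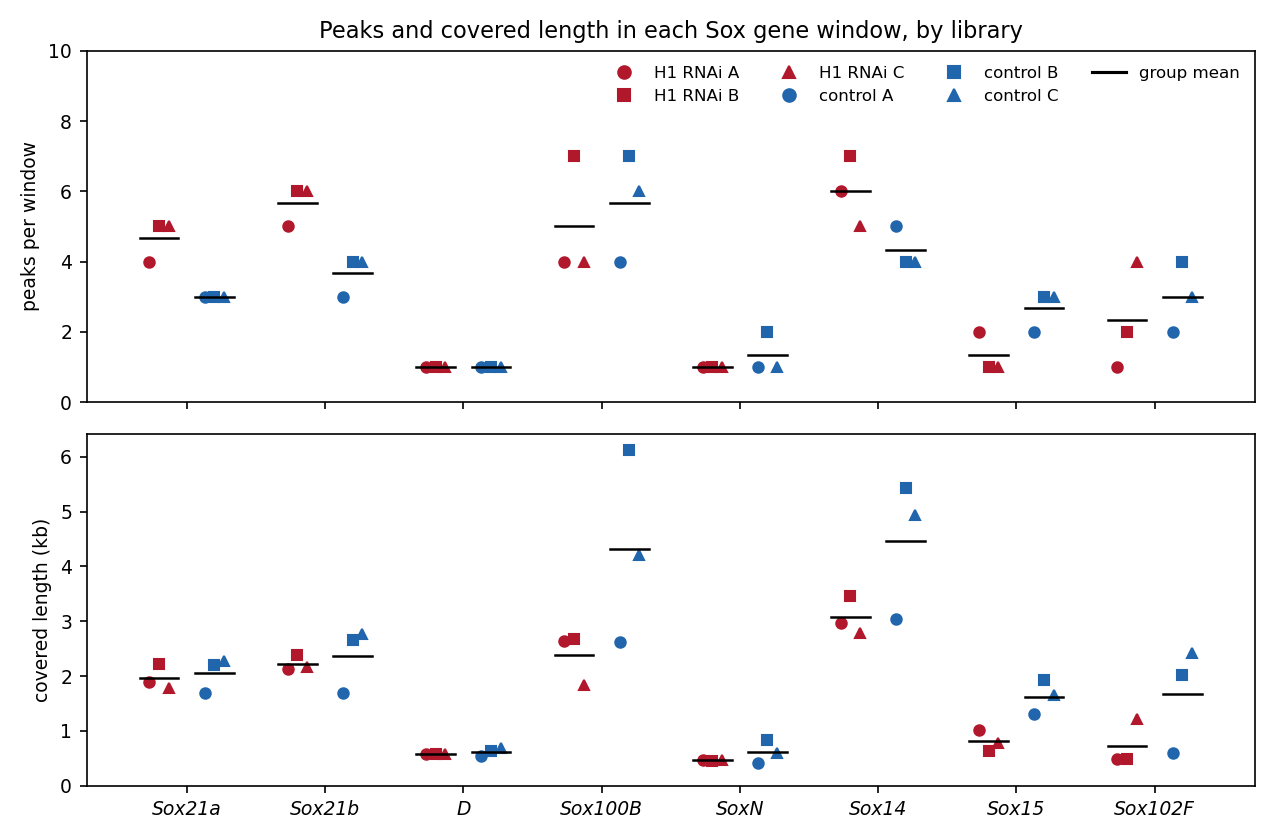
Number of peaks (upper panel) and covered length in kb (lower panel) in the window of each Sox gene, 1 symbol per library with H1 RNAi on the left and control on the right of each gene, and a bar for the group mean. Peak numbers of Sox21a and Sox21b lie higher in every H1 RNAi library than in any control, and D holds 1 peak in all 6.

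Mean covered length was lower in H1 RNAi than in controls at 8 of 8 members, as it was at 85.7% of 13922 genes. With a minimum fold of 4 it was lower at D, SoxN and Sox102F and higher at the other 5 members. That minimum kept unlike shares of the lists, and the share of all genes in each direction at this fold is not given here. Mean peak number was higher in H1 RNAi at 3 of 8 members and lower at 4, against 23.3% and 47.1% of all genes. Peak numbers in the H1 RNAi samples lay all above the controls at 2 of 8 members, Sox21a and Sox21b, which share 5 regions, and all below at 0 of 8. Of all genes, 0.467% lay all above and 0.51% all below. The median difference over the 8 members was −0.167 peaks, against 0 over 13922 genes. For covered length the medians were −482 bp and −410 bp. Without control A, 4 of 8 members separated in peak number, with 11.1% of all genes doing so. Per 10 kb of window, Sox14 had the highest mean of the family in both groups (2.27 in H1 RNAi and 1.64 in controls). Sox21a had 1.89 in H1 RNAi and 1.22 in controls, Sox21b 1.46 and 0.942, and Sox100B 1.31 and 1.49. Sox100B thus stood below Sox21a and Sox21b in H1 RNAi and above both in controls. D, SoxN, Sox15 and Sox102F lay between 0.416 and 0.435 in H1 RNAi and between 0.435 and 0.86 in controls. The median of all genes was 0.79 in H1 RNAi and 0.917 in controls. In the H1 RNAi libraries Sox14 overlapped Sox21a and Sox21b overlapped Sox100B, while Sox21a lay above Sox21b in every library.

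Peaks within 500 bp of a gene end were present at 5 of the 8 members in all 6 samples, namely Sox21a, D, SoxN, Sox100B and Sox14. The number of members with such a peak was 6, 6 and 7 in H1 RNAi A, B and C, against 6, 8 and 8 in control A, B and C (exact permutation p = 0.4). Sox15 had one in 0 H1 RNAi samples and 2 controls, Sox102F in 1 and 3, and Sox21b in 3 and 2. Of all genes 3.81% had a gene-end peak in at least 2 fewer H1 RNAi samples than controls, as Sox15 and Sox102F did, and 0.46% in at least 2 more, as 0 of 8 members did. The share of all genes with such a peak was 35.3, 46.1 and 30.3% in H1 RNAi and 29.1, 53.5 and 45.8% in controls. With a minimum fold of 4 the mean number at the Sox genes was higher in H1 RNAi by 1.67 members (exact permutation p = 0.1), and with a −log10 q of at least 10 by 0.333. These settings kept unlike shares of the lists, and the share of all genes at them is not given here.

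Over the 30 Sox regions, 14 (46.7%) were called in all 6 samples and 6 (20%) in a single sample. Of all 11854 regions, 36.8% and 22.5% were. In 1 region H1 RNAi led by at least 2 samples, against a background of 1.58% of regions. In 4 regions controls led by at least 2 samples, against a background of 7.35%. Those 4 lay at the higher-coordinate ends of Sox100B, Sox15 and Sox102F and at RpS23, a ribosomal protein gene in the Sox15 window. Called in all controls and no H1 RNAi sample were 0 of 30, with 0.616% of all regions. That count was 2 without control A, 1 without H1 RNAi A and 1 without H1 RNAi C, where the share of all regions is not given here. With lists of equal length the 4 control-led regions were called in 0 to 1 control samples.

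**Figure D5:**
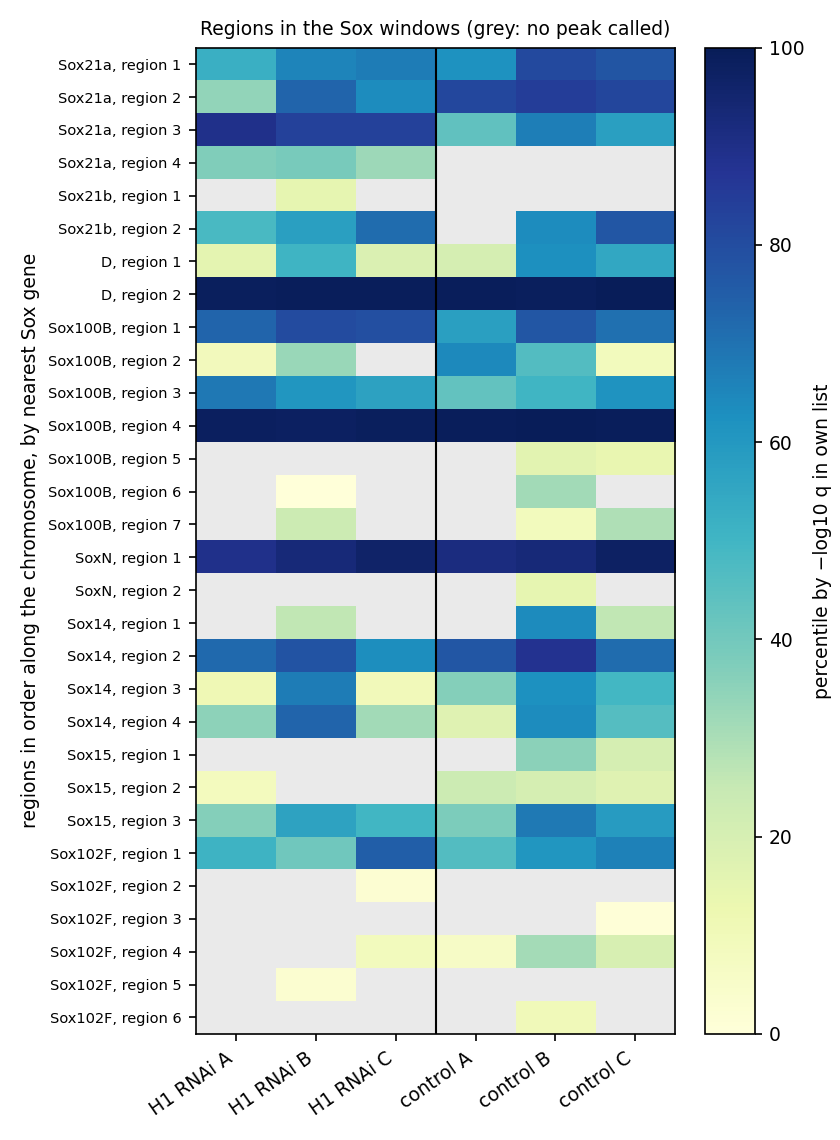
Percentile by −log10 q within the library's own list (colour) of the strongest peak in each of the 30 Sox regions (rows, in order along the chromosome by nearest Sox gene) in each library (columns, H1 RNAi left of the line, control right); grey marks no called peak. The inner regions of D and Sox100B are dark in all 6 columns, and region 4 of Sox21a is filled in the 3 H1 RNAi columns alone.

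Other HMG-box genes and genes that act with Sox21a in the lineage were described in the same way. Of 13 further HMG-box genes 12 were found in the gene table. In peak number 0 of 12 separated the groups. In covered length 2 of 12 lay lower in every H1 RNAi sample than in any control, namely Dsp1, a co-repressor gene, and bbx. Of 17 progenitor lineage genes 1 separated in peak number, GATAe, the midgut GATA factor, with 5, 5 and 5 peaks in H1 RNAi and 6, 6 and 6 in controls. The background was 0.51% of genes lower in H1 RNAi. In covered length 5 of 17 lay lower in H1 RNAi, against 4.22% of all genes: Delta, upd3, spi, GATAe and sc. At Delta, the Notch ligand gene of the stem cells, it was 1033, 1375 and 1206 bp in H1 RNAi and 1429, 2315 and 2474 bp in controls. In neither list did any gene lie higher in H1 RNAi, in peaks or in length.

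Genes with peak numbers most like those of Sox21a were searched over the 6 libraries by the summed absolute difference. CG11413 and CG6961 had the same numbers, 4, 5 and 5 in H1 RNAi and 3, 3 and 3 in controls, and CG9030 differed by 1 peak in H1 RNAi A. For D, 408 genes outside the domain had 1 peak in every library. The closest of them in covered length were CG5466 and the overlapping windows of CG43814 and ham, with summed differences of 203 and 234 bp.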

How the data were processed

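ATAC-seq peak lists of 3 H1 RNAi and 3 control samples were analysed. The submitters' processing notes name Trim Galore, Bowtie2, Picard, MACS2 and dm6. Versions, settings and the handling of the Tn5 offset are not stated in the sources used here. The deposited lists, 1 per sample, hold peak coordinates and summits. They also hold the authors' integer score, fold (a ratio to local background), −log10 p-value and −log10 q-value for each peak. These are the authors' own values and served only to rank or filter peaks inside a list. A fragment number and a background were solved for each peak from its own fold and p, leaving out peaks with the smallest p-values. Of these peaks, 99.97% to 100% in a list had a fragment number whole to within 0.02. The most common background in a list was taken as its genome-wide background. Read depth is unknown, so no counting interval is given.

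Genes came from the NCBI table of the dm6 assembly, which holds no strand, exons or sequence. For that reason 500 bp either side of both gene ends stood in for promoters, and the planned motif search was not run. Computation used Python 3.11.15, pandas 2.3.3 and numpy 2.4.6. Labels were permuted exactly (two-sided, 20 arrangements) for each of 13922 protein-coding genes on 2L, 2R, 3L, 3R, 4 and X, adjusted by Benjamini-Hochberg, at a threshold of 0.05. The code was tested on simulated lists.

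In the domain, regions were to be named if called in all 6 samples or if the groups differed by at least 2 samples. Elsewhere the rule took the region highest in its lists among those called in 6, and those differing by at least 2. Other regions are given to account for every member. Replicates are separate pools of guts, per the labels. The members, lists and tests were chosen with earlier results of these data known. Bases under the peaks of a region and the order of peaks in a list were added after their values were seen. Other settings tried were minimum −log10 q (10) and fold (4), lists shortened to 6142 peaks, windows of 5 kb, 20 kb or the gene body, 1000 bp at gene ends, other rules for regions, a block by replicate letter, and omission of each sample.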

Additional observations from a re-analysis of the deposited data

How the results depend on the processing

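No setting could move a result past 0.05, since no exact permutation p here can be smaller than 0.1, so only values and directions are compared. With a −log10 q of at least 10, 0 members separated in peak number and 0 in covered length. Of all genes, 0.546% and 3.31% then separated in either direction. Summit place separated the groups in 0 shared regions, and 0 regions were called in H1 RNAi alone and 6 in all samples. The gene-end difference turned to 0.333 members and the Sox14 peak difference to −0.667. With a fold of at least 4, 2 members separated in peak number, Sox21b (mean difference 1.67) and Sox100B (1), and 0 in covered length. Of all genes, 1.62% and 3.45% then separated in either direction. Summit place separated the groups in 0 shared regions. At this fold 2 regions (at the ends of Sox21a and dco) were called in H1 RNAi alone and 4 in all samples. The gene-end difference turned to 1.67 members. Covered length then turned to more in H1 RNAi, by 152 bp in the domain, 645 bp at Sox21a, 581 bp at Sox21b, 310.0 bp at Sox100B, 54.3 bp at Sox14 and 389.7 bp at Sox15, and peak number by 1 at Sox100B and 0.667 at Sox15. A window of 5 kb left 1 member apart in peak number, against 0.848% of all genes, with Sox21b covered length turned to 162 bp. The gene body alone, which the Sox21a gene-end peak touched in control C only, left 0, against 0.467% of all genes. Reciprocal overlap of 50% and summits clustered within 150 bp each gave 2 regions called in H1 RNAi alone, the second inside the broad Sox14 region. The cause of these changes was not tested. Leaving out each sample in turn, 2 to 4 members separated in peak number, 1 to 7 in covered length and 1 to 4 shared regions in summit place, and 0 to 2 regions were called in controls alone. Of all genes, 1.67% to 11.1% then separated in peak number and 4.55% to 70.6% in covered length. For summit place and called regions no such share is given here, for these omissions or for the settings above. The domain difference stayed between 1.67 and 2.33 peaks, and covered length ranged from −269 to 19.5 bp at Sox21a (1.33 bp without H1 RNAi C) and from −493 to 42 bp at Sox21b. Deviations of same-lettered samples correlated at −0.0357, 0.451 and −0.258 over genes (A, B and C). Samples of unlike letter correlated between −0.443 and 0.470. With 3 samples per group these values cannot show whether the letters mark a shared batch. With the letter as a replicate block, the domain difference of 2 peaks had an exact p of 0.25, the smallest a block can give.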

Other observations

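Several regions of the Sox windows belonged to other genes by position. Of the 30 regions, 6 lay within 500 bp of an end of a gene outside the family and of no Sox gene. In the Sox100B window, the end of dco, the casein kinase gene of the circadian clock (3R, 31060309 to 31061543), was called in all 6 samples, with 910, 898 and 600 bp under peaks in H1 RNAi and 815, 959 and 1232 bp in controls. In the Sox14 window, a region between Phm, a peptide-amidating enzyme gene, and Pask (2R, 23987860 to 23988746) was called in all 6 samples, with percentiles of 11.3, 67.4 and 9.38 in H1 RNAi and 36.7, 62.2 and 49.3 in controls. In the Sox15 window, the end of RpS23 (2R, 14216226 to 14217042) was called in 1 H1 RNAi sample and 3 controls, and the end of CG8468 (2R, 14219457 to 14220489) in all 6 samples. At CG8468 583, 633 and 781 bp lay under peaks in H1 RNAi, each below the 848, 1000 and 828 bp in controls.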
